A study of Mus musculus with 8 samples.

Results

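The BCL2 family decides at the mitochondrial outer membrane whether a cell under stress lives or dies, and 10 of its genes were read here in mouse leukemia cells with and without Cop1. The members were Mcl1, Bcl2, Bcl2l1, Bcl2l2, Bcl2a1b, Bax, Bak1, Bid, Bad and Bcl2l11, taken as a list of gene symbols. They account for 10 of the 13378 genes and 47 of the 134051 splice junctions in the deposited table. Both groups were FT1CL cells, an acute myeloid leukemia line made from the bone marrow of a mouse of genotype Cop1 cKO/Rosa26-Cre-ERT2. The mouse was aged 8 weeks and had received 150 mg/kg 5-fluorouracil 5 days before, and its marrow was given Trib1 on a pMYs retrovirus. Both groups grew in Iscove medium with interleukin-3 at 5 ng/mL and fetal bovine serum at 10%. The 4 Cop1KO libraries came from cells with genotype Cop1 ko/ko after 4-hydroxytamoxifen, which activates the Cre fusion. The 4 Cop1WT libraries came from Cop1 +/+ cells given no treatment, so the effects of drug, recombinase and genotype cannot be told apart. All 8 libraries trace to 1 line, and the labels do not name separate cultures. The p-values below therefore rest on a spread between libraries that may be technical only.

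Members with a survival role, such as MCL-1, BCL-2 and BCL-XL, hold the pore-forming members BAX and BAK in check. A diverse group of proteins with only a BH3 domain, among them BIM (Bcl2l11), BID and BAD, senses damage or loss of growth factor and either occupies the survival proteins or engages BAX and BAK. Once BAX and BAK open the membrane, cytochrome c escapes and caspases are activated. In myeloid cells, cytokines such as interleukin-3 keep cells alive largely through this family, and MCL-1 is needed by neutrophils and by many acute myeloid leukemias. COP1, the ligase deleted here, works with Tribbles proteins such as TRIB1 to mark the myeloid factor C/EBPα for degradation.

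The libraries held 17333302 to 22469109 junction reads, and a gene's level is given as its junction reads per 1000000 junction reads (RPM). Cop1 itself averaged 73.7 ± 6.47 RPM in Cop1KO and 162 ± 2.92 RPM in Cop1WT (SD, n = 4 each), a log2 change of -1.13 ± 0.08 (SE; limma, adjusted p = 4.91e-04). Cop1KO library 4 stood apart, with correlations of 0.934 to 0.941 to the other Cop1KO libraries, below all those among libraries 1 to 3. Cop1WT library 4 also stood apart, at 0.948 to 0.956 against 0.969 to 0.981 among the other Cop1WT libraries. Libraries of the same number deviated together, so an adjusted p with the library number as a block is given where it changes a call. In 3 members, Bid, Bak1 and Bad, 1 junction each held values of 1 to 4 reads in some libraries, where the rest of the gene predicted 100 or more. Such values are called dropped, and for these genes the sums with and without that junction are both given.

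Among the members, Mcl1 was higher and Bid was lower in Cop1KO on sums without dropped junctions (limma, threshold of 0.05), and the other 7 tested members did not pass in that fit. On the same sums limma also called Bax with TMM scaling (adjusted p = 0.0285) and with the replicate block (adjusted p = 0.00201). DESeq2 called Bax (adjusted p = 0.00265) and Bcl2a1b (adjusted p = 0.0499). The Bcl2a1b call carries little weight, as this gene reached the minimum of 1 RPM only through Cop1KO libraries. Mcl1 stood at 1.44 times its Cop1WT level, with a log2 change of 0.51 ± 0.13. Bid stood at 62.5% of its Cop1WT level, with a log2 change of -0.68 ± 0.15. On sums over all junctions Mcl1 alone passed, 1 of 9 members tested, where 20.6% of the 11003 genes tested passed. Of all genes, 8.49% were higher (934) and 12.1% lower (1330), while TMM scaling gave 1087 higher and 1017 lower. Without dropped junctions 2 of 9 members passed, where 27.0% of 10939 genes did, 10.5% higher and 16.6% lower. With the replicate block Mcl1, Bax and Bid passed on either kind of sum. On all junctions the block called 28.0% of genes, 12.3% higher and 15.7% lower, and without dropped junctions 37.7%, 15.6% higher and 22.1% lower. The members' shares lay near those of all genes, so the counts alone say nothing particular about the family. The median log2 change of the 9 members was 0.33 on all junctions and 0.09 without dropped ones, beside -0.07 over all genes on either sum.

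**Figure D1:**
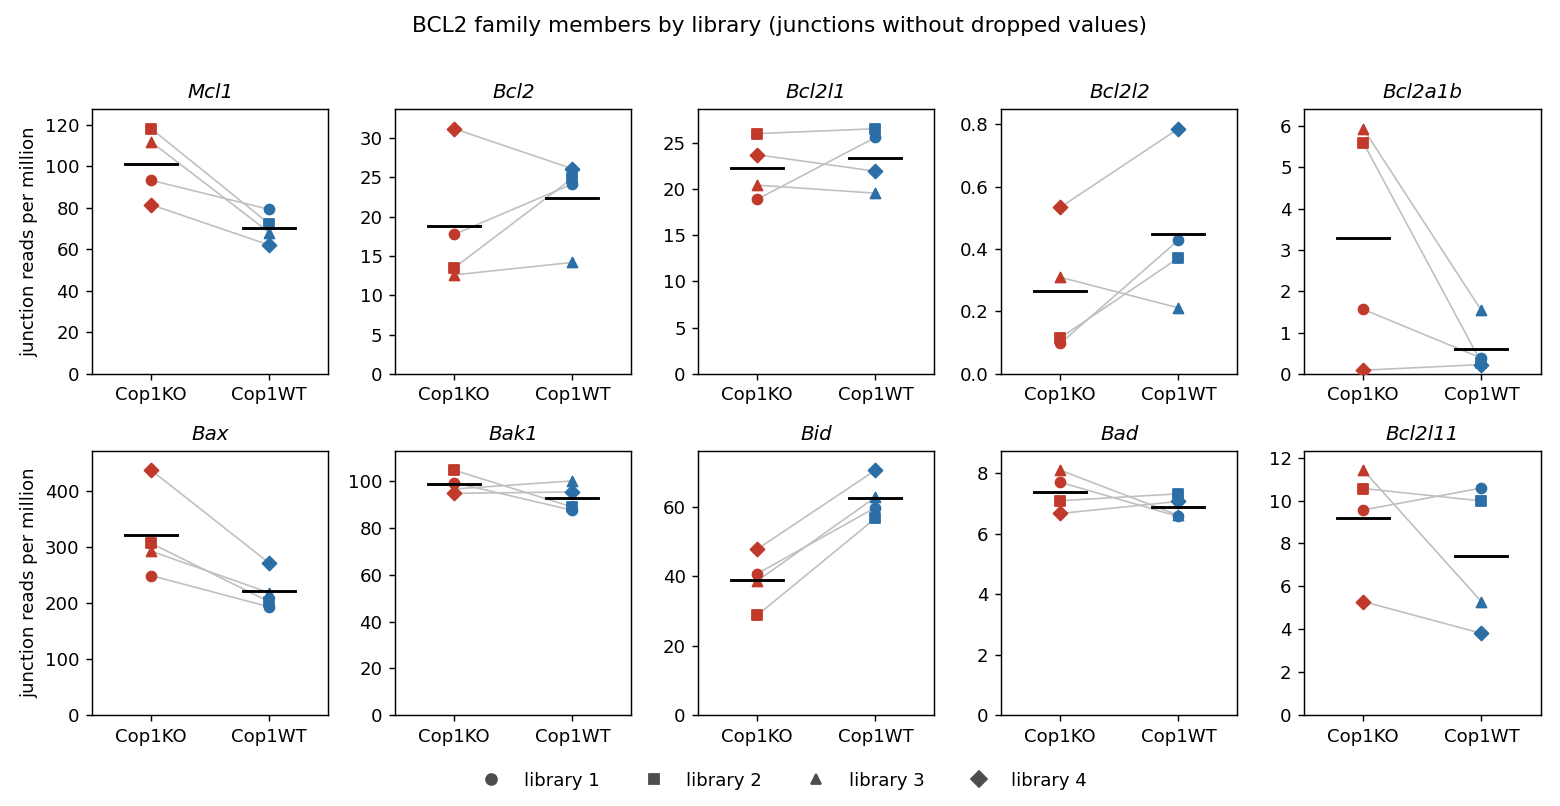
Junction reads per 1000000 junction reads (RPM) of each member in the 8 libraries, Cop1KO (red) left of Cop1WT (blue), on sums without dropped junctions; bars are means, symbols give the library number and grey lines join libraries of the same number. Mcl1 lies above and Bid below Cop1WT with no overlap, and Bax is higher in Cop1KO within each number.

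Of the survival members, Mcl1 encodes a short-lived protein that binds BAK and BIM. It had 93.2, 118, 112 and 81.4 RPM in Cop1KO libraries 1 to 4, against 79.2, 72.2, 68.1 and 62.0 RPM in Cop1WT libraries 1 to 4. Every Cop1KO library lay above every Cop1WT library, although Cop1KO library 4 exceeded Cop1WT library 1 only narrowly. The means were 101 ± 16.8 RPM in Cop1KO and 70.4 ± 7.21 RPM in Cop1WT (SD, n = 4 each), a log2 change of 0.51 ± 0.14 with a 95% interval of 0.20 to 0.82 (limma, adjusted p = 0.0323). Such non-overlap was seen for 25.1% of genes tested, 9.79% higher and 15.4% lower in Cop1KO. The gene lies at chr3:95658788-95663176 on the plus strand of mm10, and its 3 coding exons give 2 junctions. Exon 1 ends at 95659487, exon 2 runs from 95659761 to 95660008 and exon 3 starts at 95660707. The capitals mark 2 bases on either side of each join, shown because all reads counted for Mcl1 cross one of them.
Mcl1 exons 1 and 2: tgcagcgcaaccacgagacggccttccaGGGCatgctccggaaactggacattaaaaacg
Mcl1 exons 2 and 3: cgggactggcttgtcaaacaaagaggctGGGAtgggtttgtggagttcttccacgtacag

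Both joins showed the same picture. The join of exons 1 and 2 had 774, 826, 858 and 806 reads in Cop1KO, against 684, 575, 527 and 452 reads in Cop1WT. The join of exons 2 and 3 had 1138, 1221, 1306 and 1024 reads in Cop1KO, against 978, 785, 760 and 653 reads in Cop1WT. MCL-1 has a shorter form made by skipping the middle coding exon; no junction joining exons 1 and 3 was among the Mcl1 rows analysed here. The Mcl1 call was sensitive to single libraries: leaving out Cop1KO 1, 2 or 3 or Cop1WT 2, 3 or 4 took the adjusted p above the threshold, to between 0.0582 and 0.0895 (limma). Without both libraries numbered 4 the log2 change was 0.55 (limma, adjusted p = 0.0178). That comparison called 25.1% of genes on all junctions and 33.6% without dropped ones.

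Bcl2, the founding survival gene, had 17.8, 13.5, 12.6 and 31.2 RPM in Cop1KO, against 24.2, 24.9, 14.2 and 26.1 RPM in Cop1WT. Cop1KO library 4 was the highest of all 8, and the other Cop1KO libraries lay below Cop1WT libraries 1, 2 and 4. The log2 change was -0.29 ± 0.30 with a 95% interval of -0.99 to 0.40, which spans changes in both directions (limma, adjusted p = 0.542). Single libraries moved it, to -0.14 and -0.17 without Cop1KO 3 and 2, and to -0.56 and -0.49 without Cop1KO 4 and Cop1WT 3, none of them past the threshold. Bcl2 lies at chr1:106538178-106714274 on the minus strand, and its 1 junction crosses the long intron between its coding exons.

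Bcl2l1, which encodes BCL-XL and, by an alternative splice site, the death-promoting BCL-XS, had 18.9, 26.0, 20.4 and 23.7 RPM in Cop1KO. Its Cop1WT libraries had 25.5, 26.5, 19.5 and 21.9 RPM. The groups overlapped throughout, and the log2 change of -0.07 ± 0.15 had an interval of -0.41 to 0.27 (limma, adjusted p = 0.783). Bcl2l1 lies at chr2:152780668-152831728 on the minus strand. Of its 7 junctions, that between blocks E4.10 and E5.1 carried most reads, 243 to 355 in Cop1KO and 249 to 349 in Cop1WT. A rarer junction between blocks E4.13 and E5.1 had 0 to 3 reads in Cop1KO and 1 to 5 reads in Cop1WT, too few to compare. Bcl2l2, which encodes the survival protein BCL-W and lies at chr14:54883377-54888234 on the plus strand, was near the limit of detection. Its single junction had 2, 2, 6 and 12 reads in Cop1KO and 9, 7, 4 and 14 reads in Cop1WT. At a mean of 0.264 ± 0.204 RPM in Cop1KO and 0.45 ± 0.242 RPM in Cop1WT (SD, n = 4 each), it fell under the minimum of 1 RPM and was the member not tested.

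Bcl2a1b, a mouse copy of the gene for the inducible survival protein A1, varied widely between libraries. It had 32, 97, 115 and 2 reads in Cop1KO libraries 1 to 4, against 8, 5, 29 and 4 reads in Cop1WT. Scaled to the totals, Cop1KO libraries 1 to 3 were the highest of all, number 1 only just above Cop1WT library 3, while Cop1KO library 4 was the lowest of all. The means were 3.3 ± 2.92 RPM in Cop1KO and 0.601 ± 0.625 RPM in Cop1WT (SD, n = 4 each), and the log2 change of 1.14 ± 0.59 did not pass (limma, adjusted p = 0.212; 0.0886 with the replicate block). Bcl2a1b reached the minimum of 1 RPM only through Cop1KO libraries, so its tests carry little weight. Without both libraries numbered 4 the log2 change was 1.58 (limma, adjusted p = 0.0484), and without Cop1KO 4 alone it was 1.68 (limma, adjusted p = 0.0250). The A1 gene has near-identical copies on chromosome 9, and Bcl2a1b, at chr9:89199209-89207827 on the plus strand, was the copy listed among the rows analysed. Bcl2a1a lies at chr9:88956900-88962419 on the plus strand and Bcl2a1d at chr9:88723285-88731914 on the minus strand. The join of its exons 1 and 2 is shown beside those of Bcl2a1a and Bcl2a1d, with a capital at the base that differs from Bcl2a1b.
Bcl2a1b: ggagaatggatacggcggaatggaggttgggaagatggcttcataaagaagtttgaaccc
Bcl2a1a: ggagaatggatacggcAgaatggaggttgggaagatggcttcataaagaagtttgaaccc
Bcl2a1d: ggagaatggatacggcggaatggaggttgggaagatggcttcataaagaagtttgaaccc

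Over this window of 60 bases Bcl2a1d is identical to Bcl2a1b and Bcl2a1a has 1 difference. Over the 516 coding bases Bcl2a1a differs at 11 (97.87% identity) and Bcl2a1d at 6 (98.84%). Reads listed for Bcl2a1b may therefore include reads of the other copies, and the value is that of the A1 genes as counted by the authors. Summed markers of maturing neutrophils, such as Ltf and Ngp, were also highest in Cop1KO libraries 1 to 3. They stood at 4379 to 10324 RPM there and 359 RPM in Cop1KO 4, against 10.8 to 47.7 RPM in Cop1WT. In Cop1KO 4 they thus lay above every Cop1WT library, where Bcl2a1b was the lowest of all. All 10 were listed, and 7 were higher (limma), where 10.5% of all genes were. Summed monocyte markers were likewise highest in Cop1KO 1 to 3, at 1886 to 2399 RPM. They stood at 728 RPM in Cop1KO 4 and 486 to 989 RPM in Cop1WT. The part of these cells in the Bcl2a1b values was not tested. In bulk RNA, more cells of a type and more RNA per cell cannot be told apart.

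The effector Bax, a cytosolic protein that moves to mitochondria and forms pores there, was the most abundant member on its leading junction. Bax had 249, 307, 293 and 438 RPM in Cop1KO, against 194, 203, 219 and 272 RPM in Cop1WT. Library 4 was the highest in both groups, and the only overlap was that Cop1KO library 1 lay below Cop1WT library 4. The means were 322 ± 81.0 RPM in Cop1KO and 222 ± 34.9 RPM in Cop1WT (SD, n = 4 each), and the log2 change of 0.52 ± 0.18 did not pass with limma on library totals and without a term for the number (adjusted p = 0.0755). It passed with TMM scaling (limma, adjusted p = 0.0430) and with DESeq2, which applies its own scaling (adjusted p = 0.00599). It did not pass with edgeR, run here on library totals (adjusted p = 0.0756). Within the numbers 1 to 4, the log2 difference was 0.36, 0.60, 0.42 and 0.69, higher in Cop1KO in 4 of 4 pairs, and the fit with the replicate block passed (limma, adjusted p = 0.00851). Without both libraries numbered 4 Bax also passed, with a log2 change of 0.46 (limma, adjusted p = 0.0190). Its 5 junctions, at chr7:45461697-45466898 on the minus strand, all had at least 563 reads in each library and held no dropped value. At the leading one, between blocks E3.1 and E4.1, there were 1352, 1389, 1458 and 2655 reads in Cop1KO and 1075, 1032, 1105 and 1370 reads in Cop1WT.

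Bak1, whose protein sits in the mitochondrial membrane and is held there by MCL-1 and BCL-XL, gave steady values once its dropped junction was set aside. The junction between blocks E3.3 and E4.1 had 740, 628, 1 and 2 reads in Cop1KO, against 708, 1, 596 and 591 reads in Cop1WT. The junctions on either side of it had at least 507 reads in all 8 libraries. Bak1 lies at chr17:27019810-27029009 on the minus strand. Sums over all junctions gave 117 ± 24.6 RPM in Cop1KO and 117 ± 19.6 RPM in Cop1WT (SD, n = 4 each). Without that junction, Bak1 had 99.2, 104, 96.5 and 94.6 RPM in Cop1KO, against 87.4, 88.8, 99.9 and 95.2 RPM in Cop1WT. The groups overlapped, and the log2 change of 0.09 ± 0.07 had an interval of -0.07 to 0.25 when scaled to library totals (limma, adjusted p = 0.391). On the same sums the change was 0.17 with TMM scaling (limma, adjusted p = 0.136) and 0.18 with DESeq2 (adjusted p = 0.0973).

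**Figure D2:**
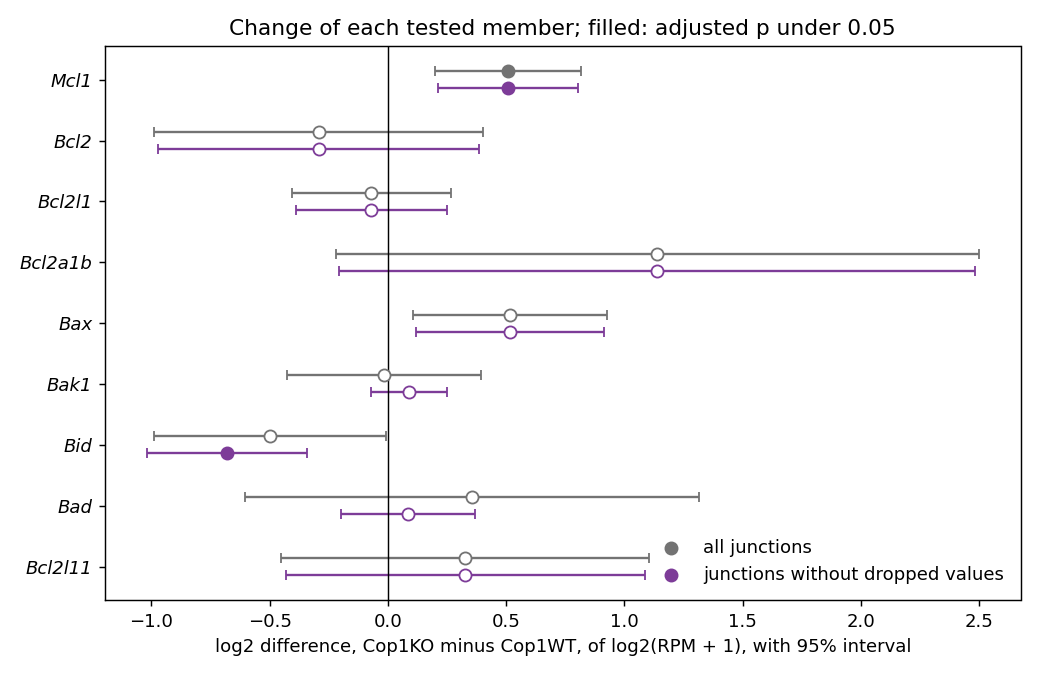
Log2 difference, Cop1KO minus Cop1WT, of the 9 tested members with 95% intervals, on sums over all junctions (grey) and without dropped junctions (purple); filled points passed an adjusted p of 0.05. Bid passes, and the Bak1 and Bad intervals narrow, once the dropped junctions are set aside, while Mcl1 passes on both sums.

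Of the BH3-only members, Bid showed the clearest difference. Its protein links death receptors to mitochondria after caspase-8 cleaves it. On sums over all junctions, Bid had 40.8, 28.8, 49.97 and 62.1 RPM in Cop1KO, against 59.8, 56.7, 62.7 and 70.5 RPM in Cop1WT. Cop1KO library 4 overlapped Cop1WT, and the log2 change was -0.50 ± 0.21 (limma, adjusted p = 0.135; 0.0485 with the replicate block). The junction between blocks E6.2 and E7.1 had 1, 1, 219 and 321 reads in Cop1KO, against 1 read in each Cop1WT library. The junctions on either side of it were well read everywhere: E5.2 to E6.2 had 193, 105, 157 and 227 reads in Cop1KO and 277, 202, 244 and 285 in Cop1WT. By the order of exons it corresponds to the join of exons 4 and 5 of transcript Bid-201, which is shown because its values decide the Bid call, with capitals on 2 bases either side of the join. Bid lies at chr6:120891930-120916853 on the minus strand, exon 4 at 120897220 to 120897359 and exon 5 at 120895619 to 120895831.
Bid exons 4 and 5: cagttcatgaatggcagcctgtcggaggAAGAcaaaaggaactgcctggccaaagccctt

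Without that junction, Bid had 40.7, 28.8, 38.7 and 47.8 RPM in Cop1KO, against 59.7, 56.6, 62.7 and 70.5 RPM in Cop1WT. Every Cop1KO library lay below every Cop1WT library, as for 18.3% of genes on these sums, where 10.9% lay wholly higher and 29.1% did not overlap. The means were 39.0 ± 7.85 RPM in Cop1KO and 62.4 ± 5.93 RPM in Cop1WT (SD, n = 4 each), and the log2 change of -0.68 ± 0.15 had an interval of -1.02 to -0.34 (limma, adjusted p = 0.0115). Within the numbers 1 to 4 the log2 difference was -0.54, -0.95, -0.68 and -0.55, lower in Cop1KO in 4 of 4 pairs. The difference was as large without both libraries numbered 4, at -0.73 (limma, adjusted p = 0.00588). The most-read junction, between blocks E4.1 and E5.1, showed it on its own, with 237, 144, 220 and 298 reads in Cop1KO and 360, 287, 336 and 373 reads in Cop1WT.

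**Figure D3:**
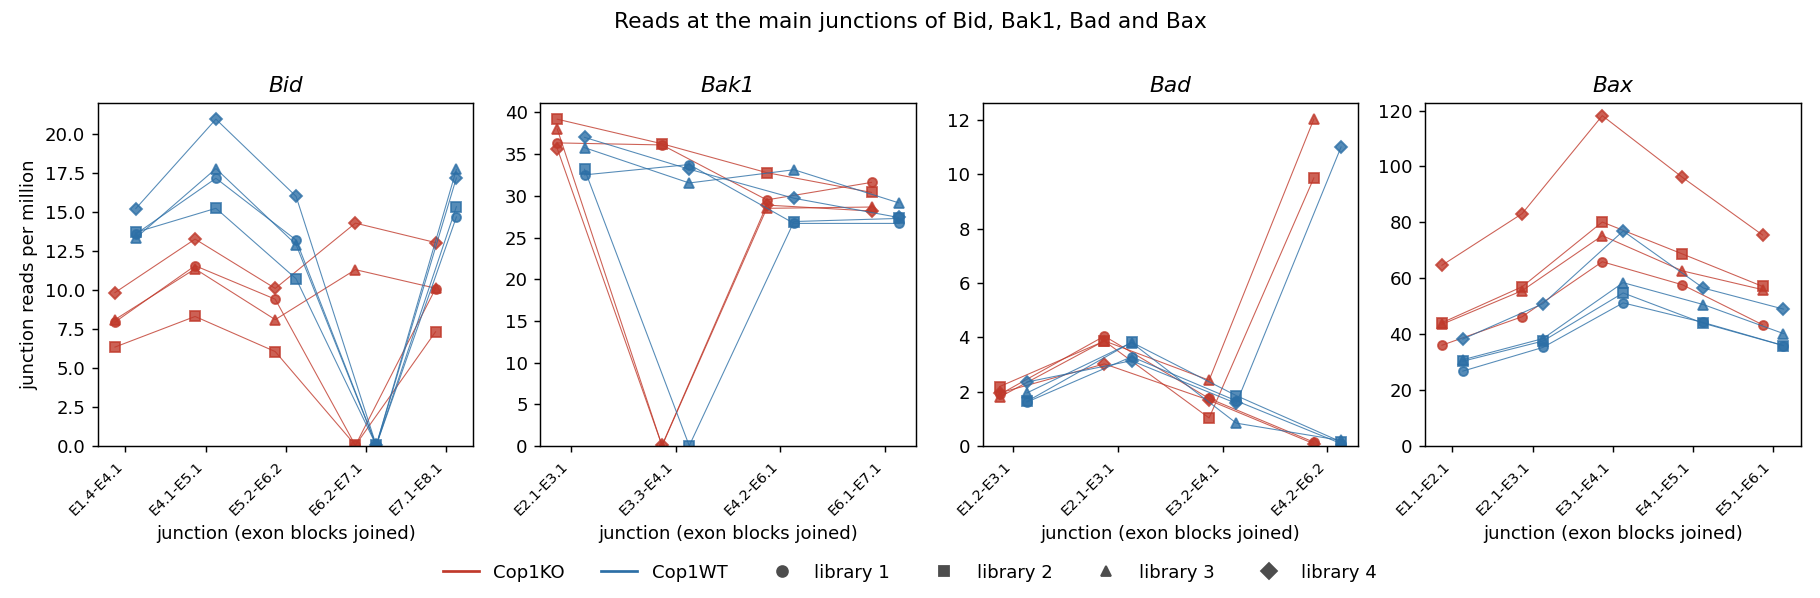
Junction reads per 1000000 junction reads at the main junctions of Bid, Bak1, Bad and Bax along each gene, Cop1KO (red) and Cop1WT (blue), 1 line per library. In Bid, Bak1 and Bad 1 junction falls to nearly 0 in some libraries while its neighbours do not, and in Bid the other 4 junctions shown are all lower in Cop1KO on average; Bax has no such junction.

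Bad encodes a BH3-only protein that growth factor signalling keeps bound to 14-3-3 proteins. Its junction between blocks E4.2 and E6.2 had 3, 171, 233 and 2 reads in Cop1KO, against 2, 3, 4 and 196 reads in Cop1WT. With it, Bad averaged 12.9 ± 6.63 RPM in Cop1KO and 9.77 ± 5.55 RPM in Cop1WT; without it, the averages were 7.40 ± 0.634 RPM in Cop1KO and 6.90 ± 0.364 RPM in Cop1WT (SD, n = 4 each). Leaving out this 1 junction reduced the SD within each group by over 10 times, and the log2 change was 0.09 ± 0.12 with an interval of -0.20 to 0.37 (limma, adjusted p = 0.650). The gene lies at chr19:6941861-6951899 on the plus strand.

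Bcl2l11 encodes BIM, which binds all survival members and is a main killer of myeloid cells deprived of cytokine. It had 9.56, 10.6, 11.4 and 5.30 RPM in Cop1KO, against 10.6, 9.98, 5.29 and 3.82 RPM in Cop1WT. Library 4 was the lowest in both groups, and the groups overlapped. The log2 change was 0.33 ± 0.34 with an interval of -0.45 to 1.11 (limma, adjusted p = 0.543). Single libraries moved it, to 0.09 without Cop1WT 4, 0.22 without Cop1KO 3 or Cop1WT 3, and 0.51 and 0.54 without Cop1WT 1 and Cop1KO 4, none of them past the threshold. The gene lies at chr2:128126038-128162547 on the plus strand. Its 9 junctions were thinly read, with 61 to 83 reads in Cop1KO and 20 to 90 in Cop1WT at the leading one, between blocks E4.4 and E6.1. A junction from block E1.4 into the intron-named block I4.2 had 34, 1, 31 and 1 reads in Cop1KO and 30, 19, 13 and 12 reads in Cop1WT, a gap too thinly read to meet the definition of a dropped value.

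Members were put in order by the reads of their leading junction without dropped values, which compares genes over the same length. In Cop1KO, Bax led at 84.9 ± 23.0 RPM, followed by Mcl1 at 59.7 ± 11.4 and Bak1 at 37.3 ± 1.6 RPM. Next came Bcl2 at 18.8 ± 8.59, Bcl2l1 at 14.4 ± 2.42 and Bid at 11.1 ± 2.06 RPM. Bcl2l11 at 3.90 ± 0.865, Bad at 3.70 ± 0.459, Bcl2a1b at 3.3 ± 2.92 and Bcl2l2 at 0.264 ± 0.204 RPM closed the order (SD, n = 4 each). In Cop1WT the order was the same except that Bid, at 17.8 ± 2.37 RPM, stood above Bcl2l1 at 15.8 ± 2.11, and Bad, at 3.52 ± 0.351 RPM, above Bcl2l11 at 2.60 ± 1.64. Bax, Mcl1 and Bak1 headed the order in both groups, with Cop1WT means of 60.3 ± 11.4, 41.3 ± 4.12 and 34.6 ± 2.12 RPM. In Cop1KO, ranges overlapped between Bax (65.9 to 118 RPM) and Mcl1 (45.6 to 70.4 RPM), among Bcl2, Bcl2l1 and Bid, and among Bcl2l11, Bad, Bcl2a1b. In Cop1WT, Mcl1 (36.7 to 46.6 RPM) and Bak1 (32.5 to 37.0 RPM) overlapped, with Bak1 above Mcl1 in library 4. Cop1WT ranges also overlapped among Bcl2, Bid (15.2 to 20.9 RPM) and Bcl2l1 (13.2 to 18.2 RPM). The same held for Bad (3.14 to 3.82 RPM) and Bcl2l11 (1.12 to 4.29 RPM). The changes of order between the groups therefore fell within overlapping ranges. Bcl2a1b overlapped Bcl2l2 in both groups, and Bcl2l11 in Cop1WT. Mcl1 was thus the leading survival transcript in both groups, above Bcl2 and Bcl2l1 in every library.

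The use of single junctions within a member was also compared. It could be tested for 14 junctions of Bax, Bid, Mcl1 and Bak1, and 0 of them passed (limma diffSplice, smallest unadjusted p = 0.503, adjusted p of 1 for each), where 0.0311% of 35363 junctions did. Departures from the gene's mean change ran from -0.12 to 0.07 on the log2 scale with SE of 0.09 to 0.22. The junctions of Bid that could be tested, like both of Mcl1, therefore gave no sign of unequal change at this precision.

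The promoter windows of the members, the 250 bases before each start in RefSeq on GRCm38.p6, were searched on both strands for letters bound by factors of this system. All 10 members had a window, 14 in all. The C/EBP letters TTGCNNAA were in 1 of the 14, that of Bid, at positions -90 to -83 from the start, where 9.56% of 32851 windows held them. The STAT letters TTCNNNGAA were in 0 of the 14, where 7.02% of windows held them. The E-box letters CACGTG were in 1, that of Bax, where 6.02% held them. Such matches describe the letters and not binding.

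Genes that act with the members were read from lists of 85 genes, 76 of them in the table and 73 tested. On all junctions 5 were higher and 9 lower in Cop1KO, and without dropped junctions 8 were higher and 15 lower of 72 tested, beside the 20.6% and 27.0% called among all genes. Among 9 tested genes of the wider BCL2 and BH3 group, Bcl2l13 passed with limma and edgeR, joined by Bnip3 with DESeq2 and by Pmaip1 with the replicate block. The Bcl2l13 protein is a mitochondrial receptor for mitophagy, and it had 49.0, 49.8, 47.0 and 36.9 RPM in Cop1KO, against 26.8, 28.0, 31.5 and 30.1 RPM in Cop1WT. All Cop1KO libraries lay above all Cop1WT libraries, with a log2 change of 0.63 ± 0.12 (limma, adjusted p = 0.0113). Bcl2l13 is the neighbour of Bid, at chr6:120836212-120892842 on the plus strand, so that the ends of the genes overlap on opposite strands. The libraries were strand-specific, but whether counting used the strand is not given in the sources used here. Whether reads passed between Bid and Bcl2l13 in the counting was not tested.

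Pmaip1, which encodes the MCL-1 antagonist NOXA, averaged 46.3 ± 9.28 RPM in Cop1KO and 30.8 ± 10.3 RPM in Cop1WT (SD, n = 4 each). Its log2 change of 0.61 ± 0.26 passed with the replicate block but not without it (limma, adjusted p = 0.135; 0.0226 with the block). Bnip3, a hypoxia-induced mitophagy receptor with a BH3-like region, averaged 195 ± 37.6 RPM in Cop1KO and 117 ± 39.6 RPM in Cop1WT and did not pass with limma (adjusted p = 0.0622). Bbc3, which encodes the p53-induced killer PUMA, averaged 26.2 ± 5.09 RPM in Cop1KO and 21.6 ± 2.85 RPM in Cop1WT and did not pass (limma, adjusted p = 0.282). Bmf, Bnip3l, Becn1 and Bcl2l14 did not pass on all junctions (limma, adjusted p = 0.737, 0.665, 0.792 and 0.181). Bnip3l held a dropped junction, and without it the adjusted p was 0.0681 (limma). Bcl2l14, with a log2 change of -0.71, passed without both libraries numbered 4 (limma, adjusted p = 0.0194), and with the block on sums without dropped junctions (adjusted p = 0.0489). Bcl2l12 averaged 4.61 ± 1.07 RPM in Cop1KO and 7.20 ± 1.12 RPM in Cop1WT without dropped junctions, where the groups did not overlap (limma, adjusted p = 0.0582; 0.0294 with the block). Bcl2l15, named after its values were seen, had a mean under 1 RPM over the 8 libraries and was not tested. It had 53, 28, 20 and 18 reads in Cop1KO, against 1, 0, 1 and 0 reads in Cop1WT.

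**Figure D4:**
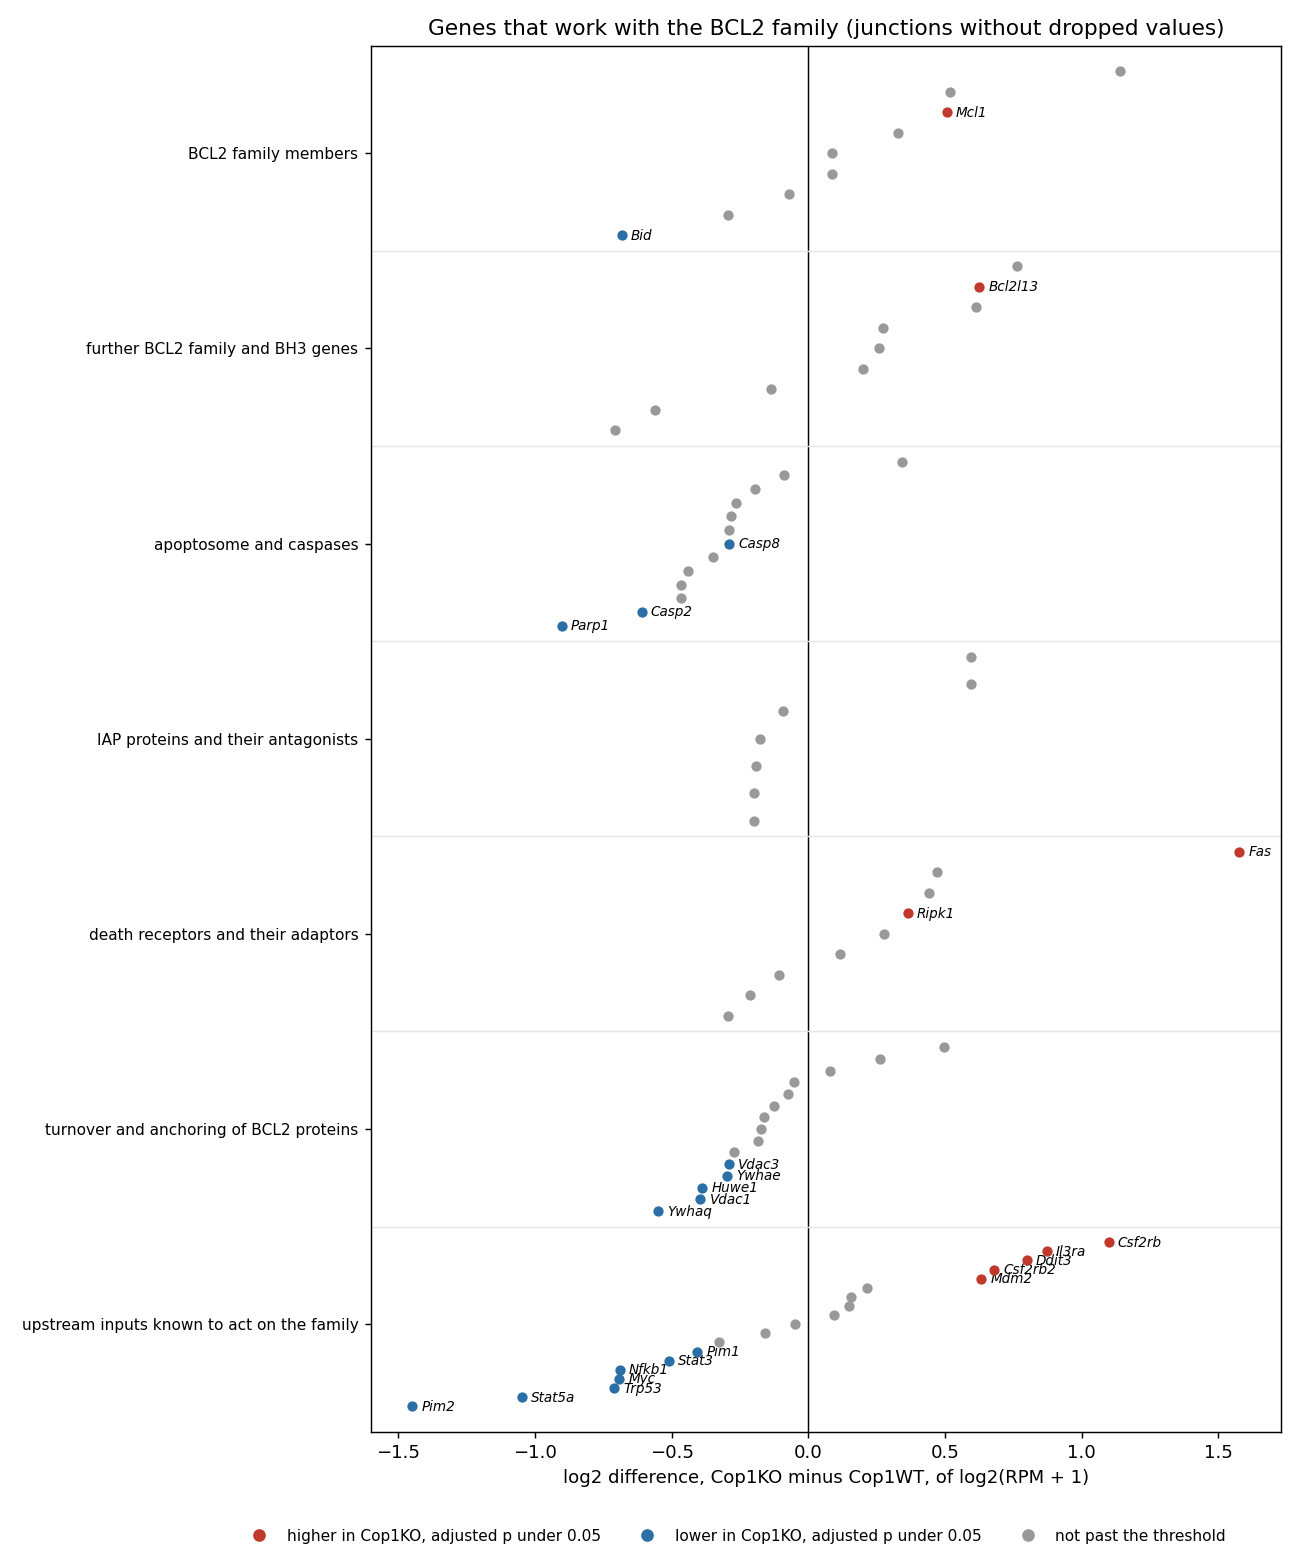
Log2 difference, Cop1KO minus Cop1WT, of each tested gene by list, on sums without dropped junctions; red and blue points passed an adjusted p of 0.05 and are named. Upstream inputs passed in both directions, while 12 of the 13 apoptosome and caspase genes lie to the left of 0. Of all 10939 genes tested on these sums, 4685 had positive estimates.

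Downstream of the members, 12 of the 13 apoptosome and caspase genes had negative estimates, with a median log2 change of -0.29. Among all 11003 genes tested on all junctions, 4771 had positive estimates, with a median of -0.07. Of the 13 genes, 1 passed on all junctions. This was Parp1, a repair enzyme and caspase target, with 246, 236, 256 and 347 RPM in Cop1KO against 461, 486, 523 and 537 RPM in Cop1WT. Its log2 change was -0.90 ± 0.13 (limma, adjusted p = 0.00388). Without dropped junctions Casp2 and Casp8 passed as well. The 1 gene with a positive estimate, Apaf1, passed as higher with DESeq2 and with the replicate block (limma) on all junctions. Those fits called 1 and 3 of the 13 genes lower. Casp8, the initiator that cleaves BID, averaged 129 ± 13.3 RPM in Cop1KO and 158 ± 1.71 RPM in Cop1WT (SD, n = 4 each; log2 change -0.29 ± 0.08, limma, adjusted p = 0.0260). Of 9 death receptor and adaptor genes Fas passed on all junctions, with 5.22, 10.9, 10.5 and 7.39 RPM in Cop1KO against 2.1, 2.39, 1.96 and 2.92 RPM in Cop1WT (log2 change 1.47 ± 0.24, limma, adjusted p = 0.00576). Without dropped junctions Ripk1, an adaptor kinase of death receptors, was also higher, at 52.9 ± 4.17 RPM in Cop1KO and 40.9 ± 3.85 RPM in Cop1WT (SD, n = 4 each; limma, adjusted p = 0.0249). DESeq2 called Fas, Ripk1 and Cflar on all junctions. Of 7 genes for inhibitor of apoptosis proteins and their antagonists, 0 passed with limma, edgeR or DESeq2 on all junctions, and 1, Birc6, had an unadjusted p under 0.05. With the replicate block Birc3 passed. Birc6, the most abundant of them, averaged 304 ± 12.3 RPM in Cop1KO and 352 ± 22.5 RPM in Cop1WT (limma, adjusted p = 0.0705).

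Among 16 tested genes for turnover and anchoring of the proteins, the 14-3-3 genes Ywhaq and Ywhae were lower and 0 were higher on all junctions, also by edgeR and DESeq2. Without dropped junctions 5 of 15 were lower, Vdac1, Vdac3 and Huwe1 besides these, and with the block Tmbim6 was higher as well (limma). Of all genes, 12.1% were lower on all junctions and 16.6% without dropped ones. Ywhaq averaged 92.5 ± 2.42 RPM in Cop1KO and 156 ± 16.6 RPM in Cop1WT, and Ywhae 181 ± 11.8 RPM in Cop1KO and 223 ± 9.20 RPM in Cop1WT (SD, n = 4 each; limma, adjusted p = 0.00231 and 0.0246). Of 19 upstream inputs, 3 were higher and 6 lower on all junctions, where 8.49% and 12.1% of all genes were. The 3 were the cytokine receptor chains Csf2rb, Il3ra and Csf2rb2. Csf2rb, the shared chain for interleukin-3, averaged 2495 ± 241 RPM in Cop1KO and 1171 ± 182 RPM in Cop1WT (log2 change 1.1 ± 0.13, limma, adjusted p = 0.00225). The 6 were Stat5a, Pim2, Stat3, Pim1, Myc and Nfkb1. Without dropped junctions 5 of 19 were higher, Mdm2 and Ddit3 besides the receptor chains, and 7 were lower, Trp53 besides the 6 (limma). On these sums 10.5% of all genes were higher and 16.6% lower. The lists were chosen with earlier results of these data known. Stat5a averaged 82.8 ± 12.7 RPM in Cop1KO and 166 ± 21.7 RPM in Cop1WT, a log2 change of -0.996 ± 0.14 (limma, adjusted p = 0.00387). Pim2, a survival kinase that acts on BAD, averaged 22.7 ± 8.51 RPM in Cop1KO and 61.3 ± 5.54 RPM in Cop1WT, a log2 change of -1.45 ± 0.21 (limma, adjusted p = 0.00439). Stat3 averaged 119 ± 16.9 RPM in Cop1KO and 180 ± 11.8 RPM in Cop1WT (limma, adjusted p = 0.00856). Not every signalling gene of the list was lower: Akt2 did not pass on all junctions (limma, adjusted p = 0.0620) but was called higher by DESeq2.

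Markers of other cells were read beside these values on sums without dropped junctions, where 10.5% of all genes were higher and 16.6% lower. All 9 markers of the myeloid line were listed, at summed levels of 3726 to 5543 RPM in Cop1KO and 1596 to 3136 RPM in Cop1WT, and 6 were higher (limma). Monocyte markers stood at 728 to 2399 RPM in Cop1KO and 486 to 989 RPM in Cop1WT. Of these 7, 2 were higher. Mast cell and basophil markers stood at 12000 to 17199 RPM in Cop1KO and 11903 to 13841 RPM in Cop1WT, and 5 of 7 were higher though the sums overlapped. Megakaryocyte markers stood at 340.04 to 678 RPM in Cop1KO and 373 to 732 RPM in Cop1WT, and 0 of 4 passed. Erythroid markers summed to 2.39 to 9.70 RPM in Cop1KO and 15.1 to 34.5 RPM in Cop1WT, with 5 of 6 in the table, 2 tested and 1 lower. T cell, B cell and stromal markers, with 2 of each list in the table, stood at 7.43 RPM or less in sum in all 8 libraries. The part of these shifts in the Mcl1, Bid and Bax values was not tested.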

How the data were processed

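RNA of 4 Cop1KO and 4 Cop1WT libraries was sequenced, and the authors deposited a normalised signal per splice junction with AltAnalyze identifiers, per the file headers. Trimmomatic 0.39, kallisto and mm10 are named in the submitters' processing notes; no aligner or annotation is given in the sources used here. Each value equalled (reads + 1) scaled by library total and a length of 60, with 0 reads at a shared floor of 0.854, so whole reads were recovered (100% of values above the floor, within 0.01 read). Reads were summed per gene, scaled to RPM and tested with limma 3.58.1 (R 4.3.3, trend and robust) on log2(RPM + 1), leaving out genes averaging under 1 RPM. P-values were adjusted by Benjamini-Hochberg over 11003 genes, with a threshold of 0.05. Changes of genes near 1 RPM are understated on this scale. A fragment across several junctions counts at each, and genes without introns were not analysed here. On the recovered reads, the edgeR 4.0.16 quasi-likelihood test on library totals called 2186 genes. DESeq2 1.42.0, with its own scaling, called 3028.

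A value was called dropped at 6 or fewer reads where the other junctions predicted at least 100 (30029 values, 9681 junctions, 3209 genes). Sums without those junctions cover 10939 tested genes. Junction use was tested with limma diffSplice on log2(RPM + 0.05) for junctions free of dropped values that averaged 100 scaled reads or more. The limma gene fit, with and without the block, and the junction fit were first tested on simulated data. Those data held no effect of the library number and no dropped values. The edgeR, DESeq2 and other alternative fits were not tested in this way. Symbols matched 13247 genes; gene coordinates and exon sequences are from GENCODE M21 on mm10. The members and lists were chosen with earlier results of these data known. All members, Cop1, Trib1 and tested genes of the wider BCL2 list were named, with up to 4 genes with the smallest adjusted p of each other list, or the most abundant where none passed; a few other genes beside them were chosen after their values were seen. Trib1, which the retrovirus also carries, averaged 941 ± 473 RPM in Cop1KO and 446 ± 221 RPM in Cop1WT (SD, n = 4 each; limma, adjusted p = 0.164, 0.0213 with the block).

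The replicate numbers come from the sample titles. After subtracting group means, same-numbered libraries correlated at 0.316 (1), 0.293 (2), 0.356 (3) and 0.550 (4), against at most 0.146 between different numbers, so the numbers pair the libraries. Counts of any pair within a group differed beyond sampling noise (chi-square/df of 30.8 or more). Alternatives were other scalings, pseudocounts, filters, tools, junction sums, the block and leaving out libraries; their use on sums without dropped junctions was chosen after seeing the data.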

Additional observations from a re-analysis of the deposited data

Results flagged for a closer look

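In Cop1WT library 3, Bcl2 at 14.2 RPM lay far below the other Cop1WT libraries, with a gap to its nearest neighbour of 0.837 of the group's range. In the same library, Bcl2a1b at 1.53 RPM lay far above the others, with a gap of 0.880 of the range. Among 20 groups of 4 examined, these 2 exceeded Dixon's critical value for 4 samples. Chance flags about 1 in 20 groups.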

How the results depend on the processing

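Counts of members past the threshold depended on the setting. On all junctions 1 member passed, against 2 with TMM scaling, with DESeq2, without dropped junctions or with the most-read junction alone, and 3 with the replicate block or without both libraries numbered 4. Leaving out 1 library gave 0 to 3 members and 1215 to 2991 genes. Without dropped junctions 2 members passed, against 3 with TMM scaling, a filter at 10 RPM or the replicate block, each adding Bax. On these sums 4 members passed with DESeq2 or without both libraries numbered 4. Those 4 included Bcl2a1b in each case, as did the 3 on all junctions without both libraries numbered 4. That gene reached 1 RPM only through Cop1KO libraries. On sums without dropped junctions, leaving out 1 library gave 1 to 3 members and 1888 to 3814 genes. In the wider list 14 genes passed, against 22 without both libraries numbered 4 and 23 without dropped junctions, and 10 to 22 with 1 library left out. The replicate block called 3084 genes on all junctions, and changed the calls of Bax and Bid there. Bid without dropped junctions passed in all 17 alternatives (limma, edgeR or DESeq2, adjusted p from 0.00131 to 0.0335). On all junctions Bid passed in 4 of 19 alternatives, and not with TMM scaling, edgeR or DESeq2. The 4 were the block, without Cop1KO 4, without dropped junctions and the most-read junction alone. Mcl1 passed in 13 of 19 alternatives on all junctions, and Bax in 4 of 19 (TMM scaling, the block, DESeq2 and without both libraries numbered 4). Without dropped junctions Mcl1 passed in 14 of 17 and Bax in 7 of 17. The sign of Bak1 on all junctions turned positive with TMM scaling (log2 change 0.0545), DESeq2 (0.0755), without both libraries numbered 4 (0.1245), without dropped junctions (0.0883) and with the most-read junction (0.1055), and ran from -0.1428 to 0.0765 with 1 library left out. The sign of Bcl2l1 turned with DESeq2 (0.0086, and 0.0166 without dropped junctions) and with TMM scaling without dropped junctions (0.0072), and ran from -0.1487 to 0.0021 with 1 library left out on either sum. Neither gene passed the threshold in these. The causes were not tested. The median log2 change of all genes was -0.07, and -0.00 with TMM scaling. Depth limits Bcl2l2, Bcl2a1b, Bcl2l11 and Bad, read at most 115 times per library at their leading junction without dropped values. The Bad junction with dropped values reached 233 reads in Cop1KO 3.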
